A study of Mus musculus with 8 samples.

Results

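The genes described here build the structures that fix the epidermis to the basement membrane and its cells to each other. They are 41 genes named in a list drawn up with earlier results of these libraries known: 12 of basement membrane anchorage, 7 of the desmosome plaque, 9 of the desmosome membrane and its extracellular part, 3 of adherens junctions, 7 of tight junctions and 3 of gap junctions. All 41 were found by symbol among the 51912 Ensembl genes of the files, and all 41 passed the filter on low counts. RNA was sequenced from ear epidermal sheets of 8 mice, each library from a different animal. The 4 mice called A20KIKO were A20F/F Krt5-CreERT2+ and the 4 called A20WT were A20F/F Krt5-CreERT2-. Both groups therefore carried conditional alleles of A20 (the gene Tnfaip3, a ubiquitin-editing inhibitor of NF-kB signalling and cell death), were 8 weeks old and received 2 injections of 1 mg tamoxifen. Tissue was taken at day 7 after the first injection. Cre recombinase fused to a tamoxifen-responsive receptor domain was present in the A20KIKO mice alone, driven by the promoter of Krt5, a gene of basal keratinocytes, so the presence of Cre and the deletion cannot be told apart in this design. The question addressed is whether transcripts of the adhesion machinery differ between the groups at that time.

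Hemidesmosomes hold basal keratinocytes to the basement membrane: the integrin pair of Itga6 and Itgb4 binds a laminin outside the cell, and plakins link it to keratin filaments inside. Desmosomes join keratinocytes to each other through cadherins (desmogleins and desmocollins), whose tails are tied to keratin by armadillo proteins and desmoplakin. Adherens junctions couple classical cadherins to actin, tight junctions of the granular layer seal the space between cells, and gap junctions built from connexins pass ions and small molecules. The desmosomal cadherins are known to change with depth in the epidermis, Dsg3 and Dsc3 being basal and Dsg1 and Dsc1 suprabasal.

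None of the 41 genes passed the test between libraries labelled A20KIKO and A20WT. In edgeR's quasi-likelihood test, with p adjusted by Benjamini-Hochberg over the 16512 genes tested, 0 were called at an adjusted p under 0.05, where 3.49% of all tested genes were. At an unadjusted p under 0.05 there were 6 of 41 members (14.6%), against 15.4% of all tested genes. DESeq2 and limma-voom also called 0, with 6 at an unadjusted p under 0.05 in each, though DESeq2 gave no p for Gjb2 and Gjb6. The median log2 change of the members, A20KIKO minus A20WT, was 0.09, and that of all tested genes was -0.01. The median size of the change regardless of sign was 0.17 for the members and 0.18 for all tested genes. The 95% interval of the log2 change lay inside a 2-fold change either way for 34 of the 41 members and inside a 1.5-fold change for 22. The wide intervals were those of the 3 gap junction genes, Dsc2, Pkp2, Cldn7 and Dsg3, as the plot of log2 changes with their intervals shows.

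**Figure D1:**
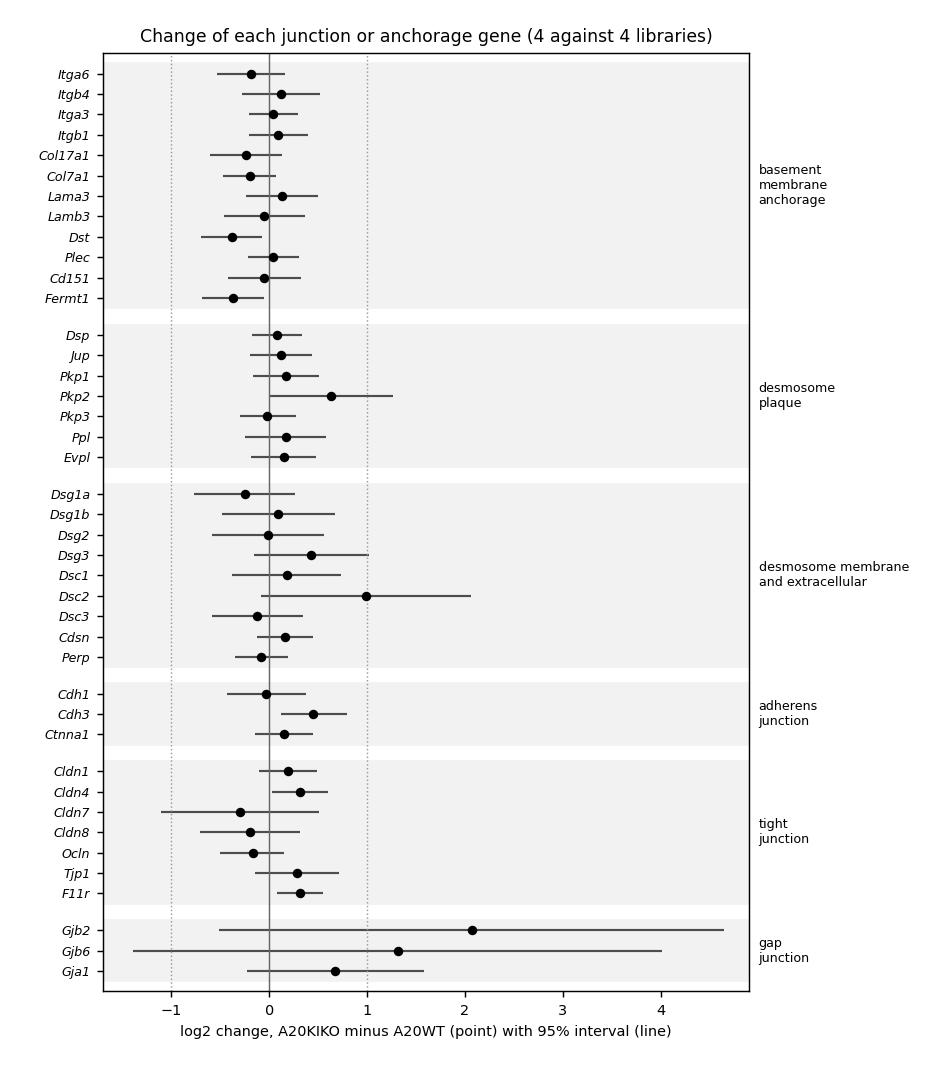
log2 change (A20KIKO minus A20WT, x axis) of each of the 41 genes, ordered by structure. Points are edgeR estimates from 4 against 4 libraries, lines their 95% intervals, and dotted lines mark a 2-fold change. Of the 41 intervals, 34 lie between the dotted lines, and those of Gjb2 and Gjb6 are the widest.

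Some facts of the libraries bear on these values. Summed counts ranged from 40451075 to 89624373 per library. Keratinocyte markers (8 genes) summed to 47200 to 72400 counts per 1000000 reads (CPM, from TMM-adjusted totals) in each library, and the 7 endothelial markers to 1.94 to 5.31 CPM. The 7 fibroblast markers summed to 15.5 to 37.2 CPM in A20KIKO and 39.9 to 55.4 CPM in A20WT, without overlap, and 0 of them were called. The 6 macrophage markers summed to 93.7 to 125 CPM in A20KIKO and 45.9 to 89.7 CPM in A20WT, and 3 of them were called higher in A20KIKO. The part of these cells in the members' values was not tested. Tnfaip3 was higher in the group whose label names its deletion, at 74.0 ± 17.3 CPM in A20KIKO against 16.5 ± 2.65 CPM in A20WT (SD, n = 4 each). The labels do not name the deleted exons, and this whole-gene count does not check the deletion, so directions are given here between labels. These are bulk samples, in which fewer cells of a type and less RNA per cell cannot be told apart.

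A20WT mice 1 and 2 had the strongest trends with exon length of the 8 libraries, in opposite directions. Trends were taken over the 7088 genes averaging 20 CPM or more, as deviations from the median of the 8 libraries. In A20WT mouse 1 the deviation went from 0.30 (log2) in the shortest quintile of genes by exon length to -0.26 in the longest. Its Spearman correlation with exon length across these genes was -0.51. A20WT mouse 2 went the other way, from -0.17 to 0.14, with a Spearman correlation of 0.52. The junction genes are long, with a median exon length of 5403 bases against 3783 for all tested genes. In A20WT mouse 1 their median deviation was -0.49, where it was -0.06 to 0.11 in the other 7 libraries. For the 25 members with more than 5000 exon bases it was -0.57 and for the other 16 it was -0.20. This library held the lowest of the 8 values for 27 of the 41 members (65.9%), and for 25.6% of all tested genes. Dst, Plec, Col7a1 and Dsp are long too and were not low there. With an offset for each library's length trend the log2 change of each of the 41 members moved by at most 0.05, and their median was 0.09 as before. Without A20WT mouse 1 their median was -0.01 and 0 were called. In that setting 8 members (19.5%) had an unadjusted p under 0.05 by edgeR, against 6 with all libraries. The share of all tested genes was not computed there. Itga6, Col17a1, Dst, Dsg1a (log2 change -0.45) and Ocln (-0.30) were the lower ones, and Cdh3, Cldn4 and F11r the higher.

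**Figure D2:**
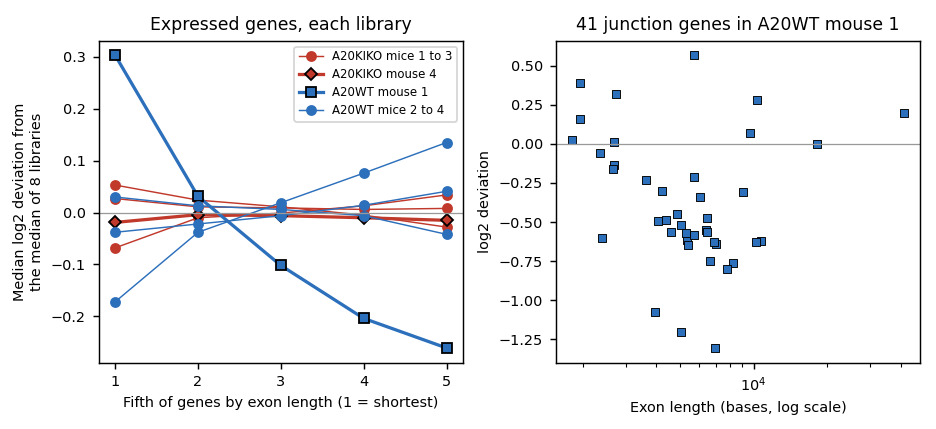
Left, median log2 deviation of 7088 genes from the median of the 8 libraries (y axis) by quintile of exon length (x axis), 1 line per library. Right, the same deviation of the 41 junction and anchorage genes in A20WT mouse 1 against exon length. A20WT mouse 1 falls from 0.30 in the shortest quintile to -0.26 in the longest, and most of the 41 genes lie below 0 in it.

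Basement membrane anchorage is described first. Of the 12 genes, 0 passed the test, 5 had a log2 change above 0 and 7 below, and the median was -0.05. The changes spanned -0.38 to 0.13, and all 12 intervals lay inside a 2-fold change. Col17a1 (ENSMUSG00000025064, chromosome 19, 47646344 to 47692094), the transmembrane collagen of hemidesmosomes, had the highest level per length of the class, 289 ± 72.4 CPM per kilobase of exon in the A20WT libraries (SD, n = 4). Col17a1 had 1390, 1460, 1610 and 1410 CPM in A20KIKO mice 1 to 4 and 1210, 2240, 1880 and 1620 CPM in A20WT mice 1 to 4. The groups overlapped, with A20WT mouse 1 lowest of all 8 and A20WT mouse 2 highest (log2 change -0.24, SE 0.17, 95% interval -0.61 to 0.13, edgeR adjusted p = 0.571). Without A20WT mouse 1 the log2 change was -0.38 (edgeR adjusted p = 0.147). Leaving out A20WT mouse 2 instead gave -0.10 (edgeR adjusted p = 0.825).

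Lamb3 (ENSMUSG00000026639, chromosome 1, 193207699 to 193343878), a chain of the laminin that hemidesmosomes bind, was next in level per length at 45.5 ± 12.3 CPM per kilobase. Its values were 264, 318, 327 and 254 CPM in A20KIKO mice 1 to 4 and 186, 379, 327 and 311 CPM in A20WT mice 1 to 4. A20WT mice 1 and 2 again gave the lowest and the highest value (log2 change -0.05, SE 0.19, 95% interval -0.46 to 0.36, edgeR adjusted p = 0.943), and without A20WT mouse 1 the log2 change was -0.22. The partner chain Lama3 had a lower level per length, 3.88 CPM per kilobase, and a log2 change of 0.13. Among the integrins, the ranges of Itgb1, Itgb4 and Itga6 overlapped in that order of level per length in the A20WT libraries, at 36.7, 32.6 and 26.7 CPM per kilobase, and Itga3 lay below them at 16.7. Itgb4 is the signature hemidesmosome integrin. It had 230, 279, 281 and 205 CPM in A20KIKO mice 1 to 4 and 151, 295, 243 and 226 CPM in A20WT mice 1 to 4, with the groups overlapping (log2 change 0.12, SE 0.18, 95% interval -0.28 to 0.52, edgeR adjusted p = 0.834). The integrin log2 changes lay between -0.19 (Itga6) and 0.12 (Itgb4), and without A20WT mouse 1 they were -0.31 and -0.03 for these genes. Per length, Itga6 was at 0.672 ± 0.113 of Itgb4 in A20KIKO against 0.827 ± 0.0793 in A20WT (SD, n = 4 each), with overlapping groups.

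Dst (ENSMUSG00000026131, chromosome 1, 33908225 to 34308661), which encodes a plakin (BP230 in epidermis) that ties hemidesmosomes to keratin, had the smallest p of the class. Its level was 257, 311, 336 and 213 CPM in A20KIKO mice 1 to 4 and 378, 389, 367 and 323 CPM in A20WT mice 1 to 4. Of the libraries labelled A20KIKO, mouse 3 reached above the lowest A20WT value and the other 3 lay below all A20WT values (log2 change -0.38, SE 0.15, 95% interval -0.70 to -0.07, edgeR adjusted p = 0.215, unadjusted p = 0.022). Without A20KIKO mouse 4, the lowest library, the log2 change was -0.27. Its exon length of 41155 bases counts exons of isoforms from other tissues, so its level per length, 8.85 CPM per kilobase in the A20WT libraries, is a low estimate. Fermt1, the kindlin that activates integrins in keratinocytes, was the other anchorage gene with an unadjusted p under 0.05 (log2 change -0.37, unadjusted p = 0.0269, edgeR adjusted p = 0.238). Its highest value, 84.0 CPM, was in A20WT mouse 1. Without that mouse its log2 change was -0.23. The plakin Plec (plectin) had a log2 change of 0.04, the tetraspanin Cd151 -0.05 and the anchoring fibril collagen Col7a1 -0.20.

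Krt5, the keratin that hemidesmosomes and desmosomes anchor in basal cells, is no member but was among the called genes of a longer list of junction genes given further on. It had 3450, 3610, 3640 and 3350 CPM in A20KIKO mice 1 to 4 and 6870, 5570, 5960 and 6510 CPM in A20WT mice 1 to 4, and it fell in the libraries labelled A20KIKO (log2 change -0.83, SE 0.12, 95% interval -1.09 to -0.56, edgeR adjusted p = 0.00272). Its partner keratin Krt14 did not pass the test (log2 change -0.28, SE 0.19, 95% interval -0.69 to 0.13, edgeR adjusted p = 0.537), with 14300, 16500, 16500 and 20400 CPM in A20KIKO mice 1 to 4 and 25700, 15300, 17300 and 24100 CPM in A20WT mice 1 to 4 and overlapping groups. Krt15, another keratin of that list, had 2900 to 5360 CPM in A20KIKO and 5350 to 7400 CPM in A20WT. It did not pass either (log2 change -0.68, SE 0.20, 95% interval -1.12 to -0.24, edgeR adjusted p = 0.104, unadjusted p = 0.00557). For the keratins Krt1 and Krt10 the log2 changes were 0.73 and 0.20, and neither passed. Krt1 had 2270, 1540, 1800 and 8000 CPM in A20KIKO mice 1 to 4. In A20WT mice 1 to 4 it had 1430, 1350, 1640 and 3790 CPM. The groups overlapped, A20KIKO mouse 4 was highest, and the 95% interval of the Krt1 log2 change was -0.80 to 2.25. Differences between these keratins and the members were not tested.

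Among the 7 desmosome plaque genes 0 passed the test. All but Pkp3 had a log2 change above 0, with a median of 0.15 that was 0.03 without A20WT mouse 1. Jup (ENSMUSG00000001552, chromosome 11, 100368958 to 100397763), plakoglobin, the armadillo protein that binds desmosomal and classical cadherins, had the highest level per length, 411 ± 69.2 CPM per kilobase in the A20WT libraries. Jup had 2570, 2840, 3210 and 2930 CPM in A20KIKO mice 1 to 4 and 2030, 2790, 2700 and 3080 CPM in A20WT mice 1 to 4. A20WT mouse 1 was lowest and the other 7 libraries were interleaved (log2 change 0.12, SE 0.15, 95% interval -0.20 to 0.44, edgeR adjusted p = 0.771). Without A20WT mouse 1 the log2 change was 0.02. Pkp3 (ENSMUSG00000054065, chromosome 7, 141078218 to 141090510), a plakophilin found throughout the living epidermis, overlapped it in level per length at 368 ± 48.5 CPM per kilobase. Its values were 1200, 1240, 1350 and 1470 CPM in A20KIKO mice 1 to 4 and 1130, 1340, 1300 and 1550 CPM in A20WT mice 1 to 4. The A20WT range held all 4 A20KIKO values (log2 change -0.02, SE 0.13, 95% interval -0.30 to 0.27, edgeR adjusted p = 0.973).

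The other plaque genes followed in the order Pkp1, Dsp, Ppl and Evpl, at 196, 135, 75.4 and 37.9 CPM per kilobase in the A20WT libraries, and the A20WT ranges of neighbours in this order did not overlap. Desmoplakin, encoded by Dsp, links the cadherin complex to keratin. Its interval was among the narrow ones (log2 change 0.08, SE 0.12, 95% interval -0.18 to 0.33, edgeR adjusted p = 0.83), with 1360, 1290, 1550 and 1290 CPM in A20KIKO mice 1 to 4 and 1390, 1360, 1260 and 1200 CPM in A20WT mice 1 to 4. Ppl and Evpl, plakins that also enter the cornified envelope, had log2 changes of 0.17 and 0.15. Pkp2, the plakophilin of simple epithelia and heart, was scarce at 0.253 CPM per kilobase. It had 2.08, 2.98, 1.76 and 1.59 CPM in A20KIKO mice 1 to 4 and 0.899, 1.46, 1.68 and 1.38 CPM in A20WT mice 1 to 4. A20KIKO mice 1 to 3 lay above all A20WT mice, and A20KIKO mouse 4 lay below A20WT mouse 3 (log2 change 0.63, SE 0.29, 95% interval 0.01 to 1.26, edgeR adjusted p = 0.311, unadjusted p = 0.0462). Without A20WT mouse 1 its log2 change was 0.48.

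Of the 9 desmosome membrane and extracellular genes, 0 passed the test at either an adjusted or an unadjusted p under 0.05, and 5 had a log2 change above 0. The highest level per length of all 41 members was that of Perp (ENSMUSG00000019851, chromosome 10, 18845020 to 18857073), a tetraspan protein needed for desmosome assembly, at 3370 ± 268 CPM per kilobase in the A20WT libraries, rank 10 of the 16512 tested genes. It was measured at 6740, 5700, 5970 and 6530 CPM in A20KIKO mice 1 to 4 and 7070, 6130, 6990 and 6120 CPM in A20WT mice 1 to 4. A20KIKO mice 2 and 3 lay below all A20WT mice, A20WT mice 1 and 3 lay above all A20KIKO mice, and the other 4 libraries overlapped (log2 change -0.08, SE 0.12, 95% interval -0.35 to 0.19, edgeR adjusted p = 0.843). Cdsn (ENSMUSG00000039518, chromosome 17, 35552128 to 35557180), corneodesmosin, the glycoprotein that holds corneocytes together until they are shed, had 826 ± 77.3 CPM per kilobase and rank 39. Its values were 2230, 2420, 2950 and 2270 CPM in A20KIKO mice 1 to 4 and 2050, 2180, 2110 and 2510 CPM in A20WT mice 1 to 4. A20WT mice 1 to 3 lay below all A20KIKO mice, and A20WT mouse 4 was above all of these but mouse 3 (log2 change 0.16, SE 0.13, 95% interval -0.13 to 0.45, edgeR adjusted p = 0.656). Without A20KIKO mouse 3, the highest library, the log2 change was 0.06.

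In the A20WT libraries the cadherins were ordered by level per length as Dsc3 (167 CPM per kilobase), Dsg1a (126), Dsc1 (55.6), Dsg1b (35.9), Dsg3 (6.01), Dsg2 (3.21) and Dsc2 (1.31). The A20WT ranges overlapped between Dsc3 and Dsg1a, Dsc1 and Dsg1b, and Dsg3 and Dsg2. These 7 genes lie in a cluster on chromosome 18, and A20WT mouse 1 was the lowest library in each of them, narrowly so in Dsc2. Dsc1, for one, had 138 CPM in that mouse, where all others had 255 to 377 CPM. Dsg1a and Dsg1b are related copies, and how reads that match both were counted is not given in the sources used here. A sum of their counts cannot recover reads left uncounted. With Dsg1a, Dsg1b and Dsg1c summed as 1 gene the log2 change was -0.19 (edgeR adjusted p = 0.783), against -0.25 for Dsg1a and 0.09 for Dsg1b.

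Dsc2, the desmocollin of simple and stratified epithelia, had the smallest p of this class. It was measured at 10.9, 7.86, 6.52 and 29.6 CPM in A20KIKO mice 1 to 4 and 5.25, 8.27, 8.56 and 5.64 CPM in A20WT mice 1 to 4. A20KIKO mouse 4 was high, and the other 7 libraries lay together at 5.25 to 10.9 CPM (log2 change 0.99, SE 0.47, 95% interval -0.09 to 2.06, edgeR adjusted p = 0.371). Its log2 change was 0.28 without A20KIKO mouse 4.

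Ratios between related genes, whose pairs were chosen after the values were seen and are given without a test, were also computed. Dsg3, the basal desmoglein, relative to Dsg1a plus Dsg1b, the suprabasal ones, was 0.0495, 0.0539, 0.0549 and 0.0664 per length in A20KIKO mice 1 to 4 and 0.0338, 0.0388, 0.0359 and 0.0382 in A20WT mice 1 to 4. The groups did not overlap in this ratio, with means of 0.0562 ± 0.00722 and 0.0367 ± 0.0023 (SD, n = 4 each), and A20WT mouse 1 was the lowest of its group. Dsg3 alone had 53, 48.6, 57.5 and 66.8 CPM in A20KIKO mice 1 to 4 and 20.9, 58.6, 52 and 36.3 CPM in A20WT mice 1 to 4, with the groups overlapping (log2 change 0.43, SE 0.27, 95% interval -0.16 to 1.02, edgeR adjusted p = 0.506), and a log2 change of 0.21 without A20WT mouse 1. Dsc3, the basal desmocollin, relative to the suprabasal Dsc1 did overlap, at 2.46 ± 0.334 in A20KIKO against 3.08 ± 0.464 in A20WT. Of the 8 ratios computed, the groups were apart in 2, this one of the desmogleins and one of the connexins.

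**Figure D3:**
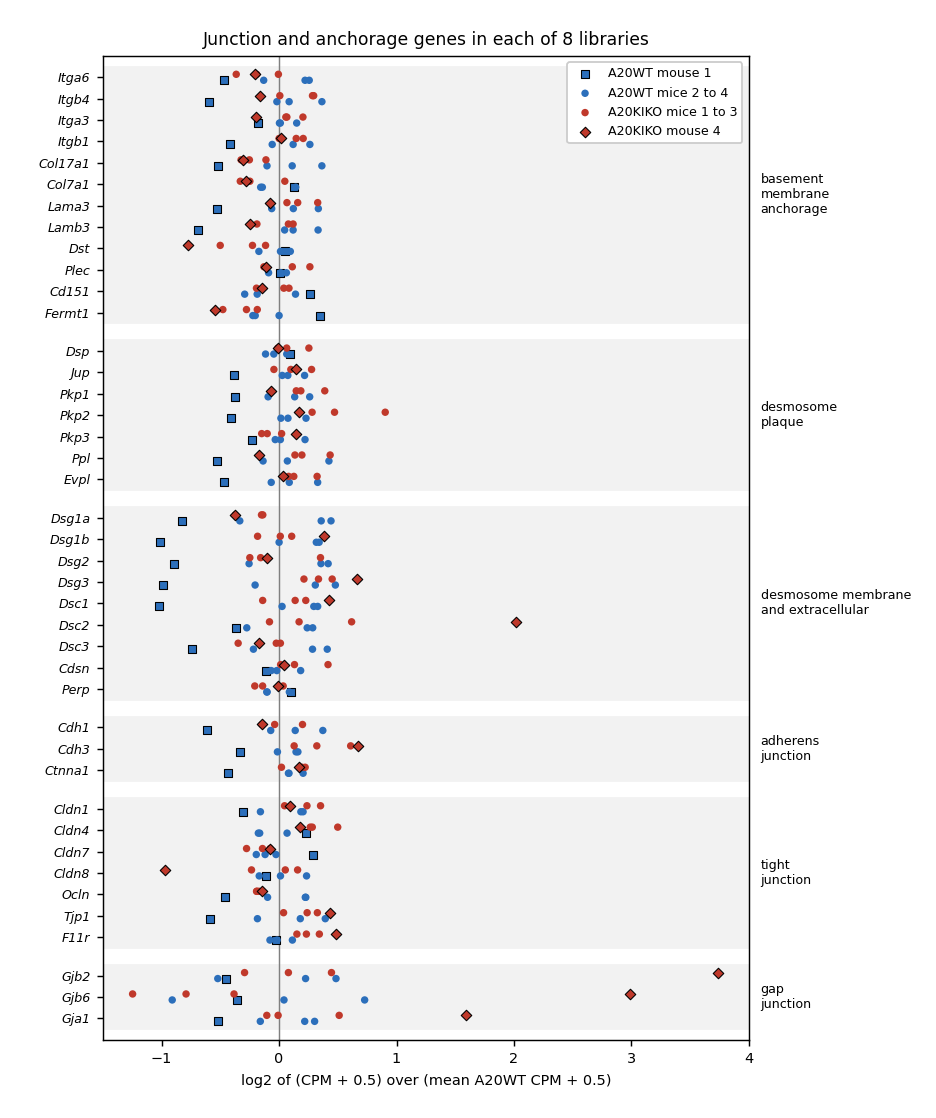
Each of the 41 genes in each library, as log2 of CPM plus 0.5 over the mean of the 4 A20WT libraries plus 0.5 (x axis). Red marks libraries labelled A20KIKO and blue those labelled A20WT, with A20KIKO mouse 4 as diamonds and A20WT mouse 1 as squares. A20WT mouse 1 is lowest in 27 genes, and A20KIKO mouse 4 lies far to the right in Gjb2, Gjb6, Gja1 and Dsc2.

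The adherens junction genes numbered 3 and 0 passed the test. Cdh1 (ENSMUSG00000000303, chromosome 8, 106603351 to 106670246), E-cadherin, the classical cadherin of all living epidermal layers, had 127 ± 34.4 CPM per kilobase in the A20WT libraries. Cdh1 had 565, 524, 666 and 524 CPM in A20KIKO mice 1 to 4 and 378, 751, 638 and 552 CPM in A20WT mice 1 to 4. The lowest and highest values were those of A20WT mice 1 and 2 (log2 change -0.03, SE 0.18, 95% interval -0.43 to 0.38, edgeR adjusted p = 0.967). Ctnna1, alpha-catenin, which couples cadherins to actin, had 44 ± 7.96 CPM per kilobase. Its values were 329, 286, 323 and 317 CPM in A20KIKO mice 1 to 4 and 208, 325, 298 and 299 CPM in A20WT mice 1 to 4. A20WT mouse 1 was low and the other 7 libraries shared the range of 286 to 329 CPM (log2 change 0.15, SE 0.14, 95% interval -0.15 to 0.45, edgeR adjusted p = 0.686). Without A20WT mouse 1 the log2 change was 0.03.

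Cdh3 (ENSMUSG00000061048, chromosome 8, 106510891 to 106557297), P-cadherin, which in mouse epidermis is known from basal cells and hair follicles, had the smallest unadjusted p of all 41 members. It was measured at 44.2, 61.9, 50.6 and 64.7 CPM in A20KIKO mice 1 to 4 and 31.9, 44.7, 45.2 and 40 CPM in A20WT mice 1 to 4. Only A20KIKO mouse 1 lay within the A20WT range, below A20WT mice 2 and 3. The change did not pass the test (log2 change 0.45, SE 0.15, 95% interval 0.12 to 0.79, edgeR adjusted p = 0.159, unadjusted p = 0.0123), with a log2 change of 0.36 without A20WT mouse 1 and 0.27 without both that mouse and A20KIKO mouse 4. Per length, Cdh3 was at 0.103 ± 0.0264 of Cdh1 in A20KIKO against 0.0749 ± 0.0106 in A20WT (SD, n = 4 each), with overlapping groups. The hair follicle marker list (7 genes, 0 called) summed to 1650 to 2000 CPM and 1490 to 1640 CPM in the same groups. The sums did not overlap. Most of each was Krt79, at 1550 to 1920 and 1420 to 1570 CPM, with overlap. Sox9, also on the list, had 64.4 to 75.8 and 54.7 to 60.0 CPM, without overlap. Lgr5 had 1.91 to 2.7 and 1.01 to 3.64 CPM, and it overlapped, as did Krt71, Krt27, Krt75 and Cd34. The part of the follicle in the Cdh3 values was not tested.

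Tight junction genes numbered 7, of which 0 passed the test, 4 had a log2 change above 0, and the median was 0.19. That median was 0.10 without A20WT mouse 1 and 0.06 without both that mouse and A20KIKO mouse 4. Cldn1 (ENSMUSG00000022512, chromosome 16, 26356642 to 26371841), the claudin without which the mouse skin barrier fails after birth, had 69.1 ± 12 CPM per kilobase in the A20WT libraries. Its values were 428, 346, 395 and 358 CPM in A20KIKO mice 1 to 4 and 271, 386, 381 and 300 CPM in A20WT mice 1 to 4. The groups overlapped, with A20WT mice 1 and 4 lowest (log2 change 0.19, SE 0.14, 95% interval -0.11 to 0.49, edgeR adjusted p = 0.587), and the log2 change was 0.10 without A20WT mouse 1. F11r (ENSMUSG00000038235, chromosome 1, 171437535 to 171464603), junctional adhesion molecule A, overlapped Cldn1 in level per length at 64.2 ± 3.77 CPM per kilobase. It was measured at 217, 201, 190 and 240 CPM in A20KIKO mice 1 to 4 and 168, 162, 169 and 185 CPM in A20WT mice 1 to 4. All 4 values labelled A20KIKO lay above all 4 labelled A20WT (log2 change 0.31, SE 0.11, 95% interval 0.08 to 0.55, edgeR adjusted p = 0.165, unadjusted p = 0.0134). F11r was the 1 member of 41 (2.44%) whose groups did not overlap, where 10.6% of all tested genes did not.

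Cldn4, another claudin of the granular layer, was the further tight junction gene with an unadjusted p under 0.05. It had 49.5, 50.1, 58.3 and 46.6 CPM in A20KIKO mice 1 to 4 and 48.4, 36.3, 43.1 and 36.6 CPM in A20WT mice 1 to 4. The lowest value labelled A20KIKO, that of mouse 4, was under the highest A20WT value, that of mouse 1 (log2 change 0.31, SE 0.13, 95% interval 0.03 to 0.60, edgeR adjusted p = 0.255). Over the 21 alternatives its log2 change was 0.25 to 0.44 and its edgeR, DESeq2 or limma-voom adjusted p was 0.0632 to 0.493, the lowest p without both of these mice and the highest without A20KIKO mouse 3. Below Cldn4 in level per length, the A20WT libraries were ordered Ocln (occludin, 13.2 CPM per kilobase), Cldn8 (3.43), Tjp1 (the scaffold ZO-1, 1.85) and Cldn7 (0.248), with no overlap between neighbours' ranges. The log2 changes of these 4 were -0.17, -0.20, 0.28 and -0.30. Cldn7 was scarce, at 0.312 to 0.703 CPM, and its interval of -1.11 to 0.51 leaves changes in either direction within reach.

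Of the 3 gap junction genes 0 passed the test. Their median log2 change, 1.31, was the highest of the 6 structures, and it was 0.11 without 1 library, A20KIKO mouse 4. Gjb2 (connexin 26), Gjb6 (connexin 30) and Gja1 (connexin 43) are the connexins most studied in skin, and Gjb2 and Gjb6 are neighbours on chromosome 14. In the A20WT libraries Gjb2 and Gja1 overlapped in level per length at 18.9 ± 6.55 and 16.6 ± 4.16 CPM per kilobase, and Gjb6 was lower at 4.93 ± 2.47. These levels rest on merged exons of 10257 bases for Gja1 and 2406 for Gjb2. In CPM, Gja1 was the higher, at 171 ± 42.6 against 45.6 ± 15.8 for Gjb2. Their promoters are shown because the 3 genes were high together in that library. Each is from 250 bases before to 50 bases after the start of transcription, 5′ to 3′, from RefSeq on GRCm38.p6, which has an entry for 20 of the 41 members. Both strands were searched for the AP-1 site TGANTCA. The same was done for the GC box, GGGCGG. The other searches were for NF-kB, by its usual consensus, and for the core promoter element with letters TATAAA, called a TATA box. Capitals mark the matches.
Gjb2, chr14:57104653-57104952, minus strand: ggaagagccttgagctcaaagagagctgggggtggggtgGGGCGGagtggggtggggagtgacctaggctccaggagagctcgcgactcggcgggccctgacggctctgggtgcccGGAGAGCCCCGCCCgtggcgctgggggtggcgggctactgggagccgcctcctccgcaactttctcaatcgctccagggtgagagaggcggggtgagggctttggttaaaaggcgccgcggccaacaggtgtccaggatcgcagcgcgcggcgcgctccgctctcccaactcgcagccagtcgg
Gjb6, chr14:57133562-57133861, minus strand: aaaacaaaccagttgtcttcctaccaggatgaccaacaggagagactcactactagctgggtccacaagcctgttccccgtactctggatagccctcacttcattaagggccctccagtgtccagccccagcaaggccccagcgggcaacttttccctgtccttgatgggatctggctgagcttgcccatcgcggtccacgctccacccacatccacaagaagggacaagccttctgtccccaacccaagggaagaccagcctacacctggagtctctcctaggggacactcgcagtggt
Gja1, chr10:56377050-56377349, plus strand: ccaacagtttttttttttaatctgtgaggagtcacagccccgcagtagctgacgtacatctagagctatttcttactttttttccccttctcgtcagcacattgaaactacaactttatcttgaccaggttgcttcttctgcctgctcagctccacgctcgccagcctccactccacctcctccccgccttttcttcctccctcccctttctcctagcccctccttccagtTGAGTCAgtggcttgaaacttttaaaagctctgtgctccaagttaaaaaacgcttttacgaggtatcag
The Gjb2 promoter held 2 GC boxes and 1 NF-kB match, and the latter overlaps the second GC box in the longer run of capitals. The Gja1 promoter held 1 AP-1 match, TGAGTCA, and the Gjb6 promoter no match to any of the 4. Of the 32851 RefSeq promoters of this length, 35.7% held a GC box, 7.81% an AP-1 match, 13.6% a TATA box and 8.46% an NF-kB match. The match is a description of letters in this window and says nothing of binding.

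Gjb2 (ENSMUSG00000046352, chromosome 14, 57098600 to 57104702) was measured at 62.3, 48.2, 37.1 and 616 CPM in A20KIKO mice 1 to 4 and 33.2, 31.6, 53.4 and 64 CPM in A20WT mice 1 to 4. A20KIKO mouse 4 was far above the rest, and A20KIKO mice 1 to 3 lay within the A20WT range (log2 change 2.07, SE 1.06, 95% interval -0.51 to 4.65, edgeR adjusted p = 0.443). Without that mouse its log2 change was 0.11 (edgeR adjusted p = 0.928). Gja1 (ENSMUSG00000050953, chromosome 10, 56377330 to 56402513) had 244, 170, 159 and 515 CPM in A20KIKO mice 1 to 4 and 119, 153, 199 and 211 CPM in A20WT mice 1 to 4. Here too A20KIKO mouse 4 was highest, and mouse 1 lay just above the A20WT range (log2 change 0.67, SE 0.39, 95% interval -0.23 to 1.58, edgeR adjusted p = 0.489), with a log2 change of 0.17 without A20KIKO mouse 4. Gjb6 (ENSMUSG00000040055, chromosome 14, 57123303 to 57133611) had 10, 7.41, 5.27 and 108 CPM in A20KIKO mice 1 to 4 and 10.2, 6.79, 13.6 and 22.2 CPM in A20WT mice 1 to 4 (log2 change 1.31, SE 1.12, 95% interval -1.39 to 4.01, edgeR adjusted p = 0.675). Outside mouse 4 its values labelled A20KIKO, 5.27 to 10 CPM, lay in the lower part of the A20WT range or under it, and without that mouse its log2 change had the other sign, -0.80 (unadjusted p = 0.0459, edgeR adjusted p = 0.369).

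In A20KIKO mouse 4 the 5 neutrophil markers (S100a8, S100a9, Cxcr2, Csf3r and Ly6g) summed to 2910 CPM, against 22.8 to 61 CPM in A20KIKO mice 1 to 3 and 5.55 to 38.4 CPM in the A20WT mice. Most of that sum was S100a8 and S100a9, at 947 and 1900 CPM, while Cxcr2 had 48.6 CPM and Csf3r 12.1 CPM. Ly6g had 1.61 CPM there and 0 counts in the other 7 libraries. The 4 markers shared by leukocytes summed to 286 CPM in A20KIKO mouse 4, 180 to 225 CPM in A20KIKO mice 1 to 3 and 136 to 204 CPM in the A20WT mice. Which cells these transcripts came from, and any part of those cells in the connexin values, was not tested.

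Relative to Gjb6, Gjb2 was higher in every library labelled A20KIKO. The ratio per length was 6.92, 7.23, 7.82 and 6.36 in A20KIKO mice 1 to 4 and 3.63, 5.18, 4.35 and 3.21 in A20WT mice 1 to 4, with means of 7.08 ± 0.607 and 4.09 ± 0.864 (SD, n = 4 each). The groups did not overlap, and A20KIKO mouse 4, so far apart in both genes, gave the lowest ratio of its group. The pair was chosen after the values were seen and no test was made. Relative to Gja1, Gjb2 stood at 5.1 in A20KIKO mouse 4, where no other library exceeded 1.29.

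**Figure D4:**
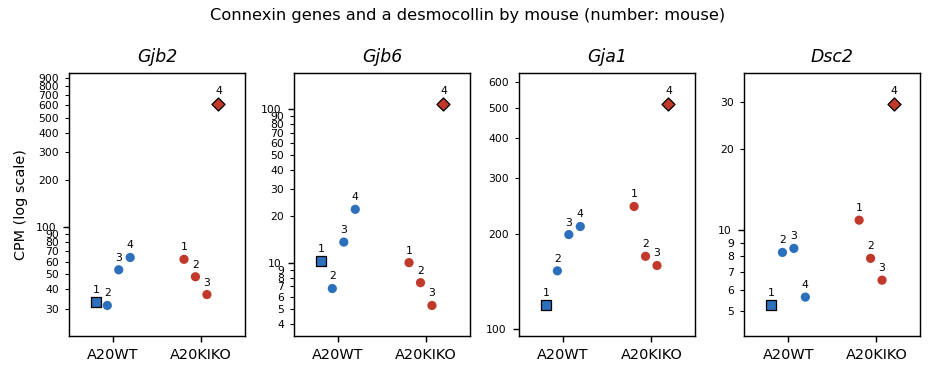
CPM (y axis, log scale) of 3 connexin genes and Dsc2 in each mouse, with the mouse number above each point and the label on the x axis. A20KIKO mouse 4 (diamond) has 616 CPM of Gjb2 and 108 CPM of Gjb6, and A20KIKO mice 1 to 3 lie among or near the A20WT mice in all 4 panels.

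Other genes of these structures were taken from a list of 112, of which 110 were matched and 101 tested. By edgeR's quasi-likelihood test 1 rose and 2 fell, against 3.49% of all tested genes called, and 23 (22.8%) had an unadjusted p under 0.05, against 15.4% of all tested genes. The median log2 change was 0.03, with 54 above 0 and 47 below. Besides Krt5, the gene that fell was Frem2 (ENSMUSG00000037016, chromosome 3, 53513938 to 53657355), a protein of the complex that attaches embryonic epidermis to the basement membrane. It had 6.44, 6.28, 7.38 and 5.88 CPM in A20KIKO mice 1 to 4 and 11.1, 13.2, 11.3 and 10 CPM in A20WT mice 1 to 4, and the groups did not overlap (log2 change -0.81, SE 0.14, 95% interval -1.12 to -0.50, edgeR adjusted p = 0.00795). The gene that rose was Klk10 (ENSMUSG00000030693, chromosome 7, 43781035 to 43785410), a secreted kallikrein-related protease. It had 224, 241, 282 and 450 CPM in A20KIKO mice 1 to 4 and 171, 142, 170 and 188 CPM in A20WT mice 1 to 4, with A20KIKO mouse 4 highest and no overlap between the groups (log2 change 0.83, SE 0.20, 95% interval 0.40 to 1.27, edgeR adjusted p = 0.0395). Its adjusted p was 0.0742 without A20KIKO mouse 3 and 0.0783 to 0.15 without any 1 A20WT mouse.

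None passed among the 13 tested genes of adherens junctions, the 24 of tight junctions and polarity and the 10 connexins and pannexins, where 2 (15.4%), 2 (8.33%) and 4 (40.0%) had an unadjusted p under 0.05 by edgeR, against 15.4% of all tested genes. The gene with the highest CPM is named for adherens junctions and for tight junctions and polarity. Nectin4, an immunoglobulin-like adhesion molecule of adherens junctions, had 429 ± 17.9 CPM in A20KIKO against 404 ± 42.6 CPM in A20WT (SD, n = 4 each; log2 change 0.09, SE 0.11, 95% interval -0.16 to 0.33, edgeR adjusted p = 0.797). Ybx3, a DNA-binding protein that partners ZO-1, had 1400 ± 43.8 against 1560 ± 66.1 CPM, with no overlap between the groups (log2 change -0.15, SE 0.11, 95% interval -0.38 to 0.08, edgeR adjusted p = 0.58). Of the 22 other laminins, integrins and basement membrane linkers, 21 were tested with a median log2 change of 0.16 (0.03 without A20WT mouse 1). Of 28 transcription factors, sheddases and corneodesmosome proteases, 25 were tested with a median of 0.08. The 8 tested keratin partners and other desmosome or envelope linker genes had a median of -0.09. In these classes, in the order given, 4 (19.0%), 8 (32.0%) and 3 (37.5%) had an unadjusted p under 0.05 by edgeR. The share of all tested genes was 15.4%.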

How the data were processed

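Each library's deposited file holds raw read counts by Ensembl gene, with 1 column for each of 2 lanes, per the file headers. The submitters' processing notes name HTSeq 0.6.1p1, Picard 1.139, STAR 2.4.2a and, as builds, GRCh38 and GRCm38.p5, without a role for any. How reads were assigned to genes is not given in the sources used here. Per the labels' protocols, libraries were made with SMART-Seq v4 and Nextera, which keep no strand and no molecular identifiers. Exons of 7 members overlap a gene on the opposite strand, over at most 7.66% of their length.

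Lanes were summed. Identifiers were matched to symbols, and to exon lengths and positions from GENCODE M21 on GRCm38. With edgeR 4.0.16 in R 4.3.3, genes were kept by filterByExpr (minimum count 10, total 15), scaled by TMM and tested with robust quasi-likelihood fits over the 8 libraries, group as the only term, two-sided, called at a Benjamini-Hochberg adjusted p under 0.05. The SE is the log2 change over the square root of F, and the 95% interval uses its t quantile. Level per length is CPM per kilobase of merged exons, so it is a low estimate where these are longer than the transcripts present. Code was tested on simulated counts, with changes given to genes drawn at random from those kept. Of genes given a 1.5-fold, 2-fold or 4-fold change, 18.5%, 59.7% and 88.7% were called in the right direction. The members, lists and ratios were chosen with earlier results of these data known. Named members are those called and, in each structure, the 2 with the highest level per length and the 1 with the smallest p. Of the other list, called genes were named, or else the highest in CPM. For 1 class of that list the gene so chosen is not reported here. Gjb6, Dsg3, Cldn4, Fermt1, Itgb4, Dsp, Krt14, Krt15, Krt1 and Krt10 were described outside this rule, after their values were seen.

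Alternatives were other size factors, filters, dispersions and tests (DESeq2 1.42.0, limma-voom 3.58.1), each lane, thinned counts, the replicate number as a block and each library left out. After the data were seen, an offset for each library's length trend and leaving out A20KIKO mouse 4 with A20WT mouse 1 were added. Python 3.11.15 was used for tables and plots.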

Additional observations from a re-analysis of the deposited data

Results flagged for a closer look

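In 2 of the 82 groups of 4 libraries examined (41 genes in each label), a single library lay further from the others than Dixon's 95% limit for the gap over the range (0.956 for Gjb2 and 0.954 for Gjb6), which chance passes in about 1 of 20 groups. Both were A20KIKO mouse 4. Gjb2 had 616 CPM there and 37.1 to 62.3 CPM in A20KIKO mice 1 to 3. Gjb6 had 108 CPM there and 5.27 to 10 CPM in the other A20KIKO mice.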

How the results depend on the processing

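The count of members called was 0 under each of the 21 alternatives, with each library left out among them. Pkp2 and Cldn7 were not tested under the stricter filter, and Gjb2 and Gjb6 had no p under DESeq2. The count of other junction genes called, 3 as reported, was 12 with DESeq2, 5 with the replicate number as a block, 5 without both A20KIKO mouse 4 and A20WT mouse 1, and 2 to 5 with 1 library left out (5 without A20KIKO mouse 2). Calls over all genes numbered 576 as reported, 1171 with DESeq2, 551 with the block, 532 without both mice and 619 without A20KIKO mouse 2. DESeq2 gave values for 109 genes of the list, against 101 tested as reported. The cause was not tested. Same-numbered mice are not said to be paired, and their deviations correlated at -0.0383 to 0.381. A20KIKO mouse 1 correlated best with A20WT mouse 3, not with its own number. Under the block, 0 members were called and 4 had an unadjusted p under 0.05.

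Some of the members described took the other sign. For Lamb3, Pkp3 and Cdh1 the reported log2 change was near 0, while for Gjb2 and Gjb6 it was 2.07 and 1.31. Lamb3 was 0.01 without A20KIKO mouse 4 and 0.08 without A20WT mouse 2. Pkp3 was 0.01 to 0.07 (0.03 without A20KIKO mouse 1, 0.01 without A20KIKO mouse 2, 0.07 without A20WT mouse 4). Cdh1 was 0.01 with the block, with limma-voom, and without A20KIKO mouse 2 or 4, 0.12 without A20WT mouse 2 and 0.02 without A20WT mouse 3. Gjb2 was -0.02 without both mice named above. Gjb6 was -0.80 without A20KIKO mouse 4 and -0.91 without both. With 1 library left out the ranges were -0.22 to 0.08 for Lamb3, -0.09 to 0.07 for Pkp3, -0.18 to 0.12 for Cdh1 and -0.80 to 1.68 for Gjb6. DESeq2 gave no p for Gjb2 or Gjb6. Klk10 was not called with upper-quartile factors, the stricter filter (5 CPM in at least 4 libraries), limma-voom or the length offset (adjusted p 0.05 to 0.0574). Depth limits Cldn7, at 16 to 61 counts per library.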
